A study of Mus musculus with 5 samples.

Results

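The Notch pathway genes described here are *Notch1*, *Notch2*, *Notch3*, *Jag1*, *Jag2*, *Dll1*, *Lfng*, *Rbpj*, *Hes1* and *Hey1*, which are 10 of the 22380 protein-coding genes of the mm9 annotation (GENCODE M1). A peak was given to one of them when its centre lay in the gene body or within 10 kb of it, or when the nearest transcription start of any protein-coding gene was its own. By this rule 39 of 21270 peaks in the SOX11 list and 7 of 2669 in the SOX4 list belonged to the genes. The ChIP-seq experiment was done on keratinocytes isolated from newborn mice labelled as mixed 129SvEx:C57BL/6, bred with a Krt14-Cre line of FVB/N background to the genotype Krt14-Cre;Sox11fl/fl;Sox4fl/fl, in which Cre made from the keratin 14 promoter of basal epidermal cells deletes both floxed genes, so every group, the control included, lacked endogenous SOX11 and SOX4. The cells of 1 group carried a lentivirus with doxycycline-inducible, FLAG-tagged *Sox11* and those of the other FLAG-tagged *Sox4*, and doxycycline was given before fixation. Each had 2 replicates, precipitated with a mouse antibody to FLAG. A single control library without a peak list is named as input in its title and as IgG in its antibody label. Bound sites therefore come from an introduced, tagged protein and not from the level of either factor that a keratinocyte makes itself.

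Notch receptors sit in the cell membrane and are activated by ligands of the Jagged and Delta-like families on a neighbouring cell. Proteases then release the intracellular part of the receptor, which enters the nucleus and turns the DNA-binding protein RBPJ from a repressor into an activator of genes such as *Hes1* and *Hey1*. In the epidermis the pathway is known for moving keratinocytes from the basal layer into differentiation. SOX11 and SOX4 are closely related transcription factors that bind through an HMG box to sequences around ACAAAG or ACAATG.

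The authors deposited 1 peak list per factor, made from the merged replicates, with the chromosome, start and end of each peak and nothing else. Heights, scores and p-values are absent and depth is unknown, which leaves no spread between replicates, and no test was run. SOX11 peaks are 258 bp wide and SOX4 peaks 340 bp, apart from 15 and 6 of other width. The place of a peak in its list is given below as its number. What orders the lists is not given in the sources used here, but the order is not arbitrary, since 62.0% of the first 2127 SOX11 peaks overlapped a SOX4 peak and 2.02% of the last 2127 did. The lists measure occupancy and not expression, so the labelled cell type could not be checked against marker genes here.

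A SOX11 peak was found for 9 of the 10 genes, all but *Jag2*, where 57.0% of all protein-coding genes had a SOX11 peak by the same rule. With only the gene body and 10 kb on each side counted, 6 of the 10 had one (*Notch1*, *Notch2*, *Notch3*, *Dll1*, *Lfng* and *Rbpj*), against 50.7% of all genes. *Jag1*, *Hes1* and *Hey1* had SOX11 peaks only at a greater distance. A SOX4 peak was found for 4 of the 10, *Notch1*, *Notch3*, *Jag1* and *Lfng*, against 13.0% of all genes. Within 10 kb, *Lfng* and *Notch3* had a SOX4 peak, or 2 of 10 against 10.2%. The numbers of SOX11 peaks ran from 0 at *Jag2* and 1 at *Lfng* to 6 at *Dll1* and 15 at *Jag1*. Longer genes and genes with distant neighbours have more sequence in which a peak can be counted. The stretch of chromosome nearest to a start of the gene was 24.3 kb for *Jag2*, 42.0 kb for *Lfng* and 698 kb for *Jag1*.

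**Figure D1:**
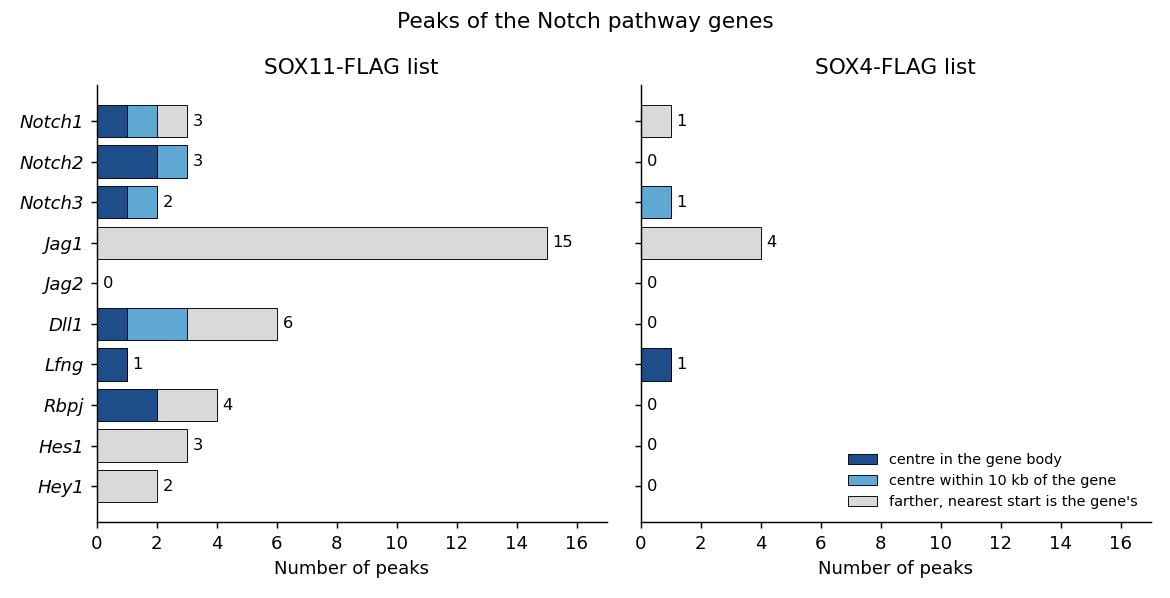
Number of SOX11-FLAG peaks (left) and SOX4-FLAG peaks (right) of each Notch pathway gene, with the colours of the bars giving where the peak centre lies. *Jag1* had 15 SOX11 and 4 SOX4 peaks, all farther than 10 kb from the gene, while *Jag2* had 0 in both lists.

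Every SOX4 peak of these genes overlapped a SOX11 peak, and so 7 of the 39 SOX11 peaks were shared. This is 17.9% (95% Wilson interval 8.98 to 32.7%, which covers counting error over peaks that are not replicates), with 11.9% of all SOX11 peaks shared. *Jag1* held 4 of the 7, and without its peaks 3 of 24 were shared, or 12.5%. Within each pair at least 212 bp were common to both peaks. The centres were 3 to 87 bp apart, with a median of 24 bp over all 2522 shared SOX11 peaks of the list. The mm9 sequences of the 7 shared SOX11 peaks are shown because they are the places near these genes where both factors were called. They are on the plus strand, 5′ to 3′, with capitals for the 6-letter SOX core (CTTTGT or CATTGT, on either strand, where the other strand reads ACAAAG or ACAATG) and for the AP-1 core (TGACTCA or TGAGTCA, on either strand):
*Lfng*, intron, chr5:141087167-141087424, SOX11 number 1: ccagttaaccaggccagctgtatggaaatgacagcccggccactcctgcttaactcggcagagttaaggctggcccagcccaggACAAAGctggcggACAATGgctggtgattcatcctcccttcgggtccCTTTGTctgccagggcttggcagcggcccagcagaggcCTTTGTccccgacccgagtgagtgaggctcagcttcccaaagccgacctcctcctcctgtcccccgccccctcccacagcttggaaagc
*Jag1*, upstream, chr2:137392457-137392714, SOX11 number 90: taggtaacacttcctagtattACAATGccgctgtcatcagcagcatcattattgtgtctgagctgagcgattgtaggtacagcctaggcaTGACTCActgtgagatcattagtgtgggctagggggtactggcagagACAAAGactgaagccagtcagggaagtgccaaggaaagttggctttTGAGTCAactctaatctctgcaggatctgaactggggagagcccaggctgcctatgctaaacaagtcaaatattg
*Jag1*, upstream, chr2:137320813-137321070, SOX11 number 199: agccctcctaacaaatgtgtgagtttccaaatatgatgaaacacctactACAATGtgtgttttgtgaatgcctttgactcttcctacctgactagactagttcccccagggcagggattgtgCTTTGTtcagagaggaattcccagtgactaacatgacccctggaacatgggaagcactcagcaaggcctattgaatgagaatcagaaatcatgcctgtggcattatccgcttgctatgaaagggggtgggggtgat
*Jag1*, upstream, chr2:137281291-137281548, SOX11 number 322: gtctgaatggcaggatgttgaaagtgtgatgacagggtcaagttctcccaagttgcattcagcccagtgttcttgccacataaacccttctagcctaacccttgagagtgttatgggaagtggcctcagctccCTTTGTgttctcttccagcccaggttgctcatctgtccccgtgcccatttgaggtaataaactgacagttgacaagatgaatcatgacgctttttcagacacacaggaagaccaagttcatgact
*Jag1*, upstream, chr2:137420266-137420523, SOX11 number 688: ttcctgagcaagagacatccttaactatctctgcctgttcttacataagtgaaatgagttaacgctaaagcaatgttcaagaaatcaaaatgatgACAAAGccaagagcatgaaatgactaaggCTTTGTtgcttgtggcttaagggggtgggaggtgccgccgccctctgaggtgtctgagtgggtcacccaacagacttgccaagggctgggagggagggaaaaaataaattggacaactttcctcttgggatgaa
*Notch1*, upstream, chr2:26388770-26389027, SOX11 number 2001: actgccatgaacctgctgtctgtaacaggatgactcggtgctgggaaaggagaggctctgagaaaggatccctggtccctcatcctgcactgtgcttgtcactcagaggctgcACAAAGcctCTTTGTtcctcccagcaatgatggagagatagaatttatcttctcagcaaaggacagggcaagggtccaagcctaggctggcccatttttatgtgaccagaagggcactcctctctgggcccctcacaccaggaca
*Notch3*, upstream, chr17:32306756-32307013, SOX11 number 3640: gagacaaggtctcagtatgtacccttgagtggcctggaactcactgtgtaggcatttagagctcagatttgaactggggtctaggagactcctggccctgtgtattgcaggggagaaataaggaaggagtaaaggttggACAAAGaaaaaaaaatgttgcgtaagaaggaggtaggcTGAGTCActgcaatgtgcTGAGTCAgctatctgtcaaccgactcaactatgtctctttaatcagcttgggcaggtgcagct

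All 7 of these sequences held the 6-letter SOX core, which 58.5% of all SOX11 peaks and 83.6% of all shared SOX11 peaks held. In each of the 7 a core lay within 15 bp of the peak centre, a distance chosen after the positions were seen. By that measure 54.3% of all shared SOX11 peaks and 26.0% of all SOX11 peaks had a core at the centre. SOX core without further words stands for the 6-letter one below. The *Lfng* peak held 4 cores, a number reached by 0.409% of SOX11 peaks. Those at bases 85 to 90 and 98 to 103 were on the minus strand, and those at bases 132 to 137 and 170 to 175 on the plus strand. In the *Notch1* peak a minus-strand core at bases 114 to 119 was followed by a plus-strand core at bases 123 to 128, with 3 bases between them. The *Jag1* peaks number 199 and 688 likewise had a minus-strand core followed by a plus-strand one, but 67 and 23 bases apart. AP-1 cores, the sites of FOS and JUN proteins, were present in *Jag1* peak number 90 and in the *Notch3* peak, each with a pair. In the former they lay 36 bp before and 57 bp after the centre and thus on both sides of the central SOX core, and in the latter 51 and 69 bp after the centre. The 7-letter SOX core (CTTTGTT or CATTGTT, on either strand) was found in 3 of the 7, against 50.0% of all shared SOX11 peaks, and the AP-1 core in 2 of the 7, against 25.2%.

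**Figure D2:**
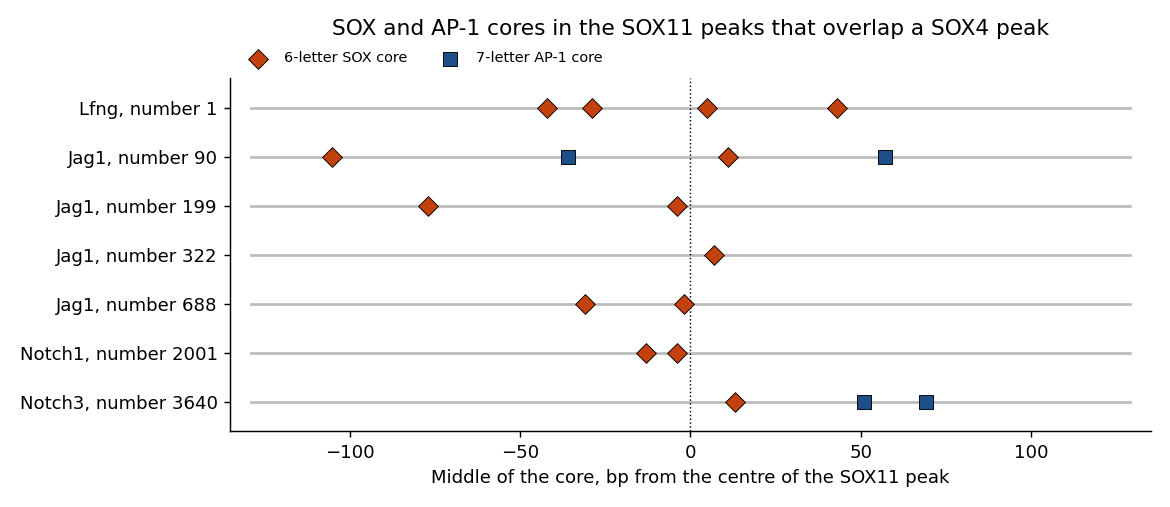
Position of the 6-letter SOX core (diamonds) and the AP-1 core (squares) in the 7 shared SOX11 peaks, in bp from the peak centre, with the grey line as the extent of the peak. Each peak has a SOX core within 13 bp of the centre, and *Jag1* number 90 and *Notch3* have a pair of AP-1 cores each.

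*Lfng* encodes Lunatic fringe, a sugar transferase of the Golgi that extends O-fucose on Notch receptors and changes which ligands activate them. It had a single SOX11 peak, and that peak opens the deposited list of 21270. The SOX4 peak over it, chr5:141087140-141087479, is number 10 of 2669 and contains the whole SOX11 peak, with the centres 14 bp apart. The SOX11 peak centre lies in an intron of *Lfng*, 4001 bp downstream of its start, with no base in an exon. No other peak of the 10 genes stands before number 90 of the SOX11 list or number 147 of the SOX4 list. Its GC content was 62.4%, where the median of all SOX11 peaks was 51.6%.

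Of the receptors, *Notch1* had 3 SOX11 peaks, *Notch2* had 3 and *Notch3* had 2. At *Notch1*, the receptor of basal and suprabasal keratinocytes best known for a role in differentiation, the peak earliest in the list was number 704. It lies in an intron at chr2:26357852-26358109, 14.2 kb downstream of the 5′ end of the gene and 1.36 kb downstream of the start of a shorter annotated transcript. It overlapped no SOX4 peak. Its plus-strand sequence is shown as the earliest SOX11 peak of a receptor gene without SOX4, with the same capitals:
*Notch1*, intron, SOX11 number 704: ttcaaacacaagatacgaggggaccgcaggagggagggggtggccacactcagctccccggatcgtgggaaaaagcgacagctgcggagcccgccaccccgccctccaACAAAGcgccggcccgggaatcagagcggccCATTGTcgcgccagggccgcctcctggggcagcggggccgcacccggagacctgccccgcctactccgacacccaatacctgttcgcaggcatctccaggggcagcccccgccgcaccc
This sequence is 70.2% G and C and holds a minus-strand and a plus-strand SOX core, at bases 109 to 114 and 140 to 145. It also holds GTGGGAA at bases 65 to 71, the core recognised by RBPJ. The shared *Notch1* peak, number 2001 of the SOX11 list and 638 of the SOX4 list, lies 16.7 kb upstream of the gene. Between it and the gene, 9.26 kb upstream, is SOX11 peak number 5870 (chr2:26381316-26381573), which has an AP-1 core and a GTGGGAA but no SOX core. The *Notch1* peaks were thus on both sides of the 5′ end, and the only shared one was the farthest from it.

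*Notch2* had SOX11 peaks later in the list and no SOX4 peak. Number 9330, chr3:97817233-97817490, lies over its transcription start, with the centre 99 bp upstream. It is the most GC-rich of the 39, at 74.4%, holds 6 GC boxes (GGGCGG, on either strand) and has no SOX core. Numbers 8762 and 13875 are intronic, 85.3 and 20.5 kb from the start. The former, chr3:97902663-97902920, is nearer to the start of *Adam30* than to that of *Notch2* and is the only one of the 39 that entered by the gene body alone. The closest SOX4 peak was 304 kb from the *Notch2* start, in an intron of *Phgdh*.

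*Notch3* had the shared peak 3.06 kb upstream of its start, number 3640 of the SOX11 list and 2113 of the SOX4 list, and an intronic SOX11 peak, number 7867 (chr17:32299174-32299431), 4.52 kb downstream. The intronic peak has no SOX core, is 71.7% G and C, and holds GTGGGAA on the minus strand. A SOX11 peak 10.2 kb beyond the 3′ end of *Notch3*, number 4629, was just outside the rule, since the nearest start was that of a transcript of *Rrp1b*. With the starts of protein-coding transcripts alone, the nearest was that of *Notch3*, and the peak would have been counted. The shared peaks of *Notch1* and *Notch3* lay upstream, with a GC content of 53.5 and 47.3%. The SOX11-only peaks of the 3 receptor genes ranged from 44.2% in the *Notch2* intron to 74.4% at the *Notch2* start, and all but the one upstream of *Notch1* lay in the gene or over its start.

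Among the ligand genes, *Jag1* stood apart by the number and distance of its peaks. Jagged1 is a Notch ligand of the epidermis and hair follicle. Neither list had a peak in the gene or within 10 kb, and the closest SOX11 peak, number 8010, was 17.5 kb upstream of the start. Still, 15 SOX11 peaks had the *Jag1* start as their nearest, all of them upstream and all between genes. Their distances ran from 17.5 to 538 kb. Only 12 of the 22380 genes had more SOX11 peaks by nearest start, and 21 genes had at least as many, *Jag1* included. The next protein-coding start upstream, that of *Btbd3*, is 1140 kb away, and 22 SOX11 peaks lay in between, 15 on the *Jag1* side of the midpoint and 7 on the *Btbd3* side. All 4 SOX4 peaks of the interval were on the *Jag1* side.

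The *Jag1* peaks earliest in the list lay close to each other and far from the gene. SOX11 number 322, overlapping SOX4 number 329, lay 339 kb upstream. Number 199, overlapping SOX4 number 222, lay 379 kb upstream. Number 90, overlapping SOX4 number 147, lay 450 kb upstream, and number 688, overlapping SOX4 number 924, lay 478 kb upstream. From number 940 at 297 kb to number 2953 at 538 kb, 11 SOX11 peaks fell within 241 kb, or 4.56 per 100 kb, where the genome held 0.806 per 100 kb on average. The bounds of this stretch were set by the peaks in it. Over the whole 698 kb nearest to *Jag1* there were 2.15 SOX11 peaks per 100 kb. By the same measure *Dll1* had 3.41, *Notch1* 3.18, *Notch3* 3.07 and *Lfng* 2.38, and the remaining members had fewer than *Jag1*. Of 614 genes with a stretch at least as long, the median gene had 1 SOX11 peak and 12 genes had at least as many as *Jag1*. None of the 15 peaks lay in a gene that is not protein-coding, of which the annotation has 3 between *Jag1* and *Btbd3*. Of the 15 sequences, 12 held the 6-letter SOX core, and their median GC content was 46.1%. Which gene such distant sites act on cannot be read from the lists, since the nearest start is only a rule of assignment.

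**Figure D3:**
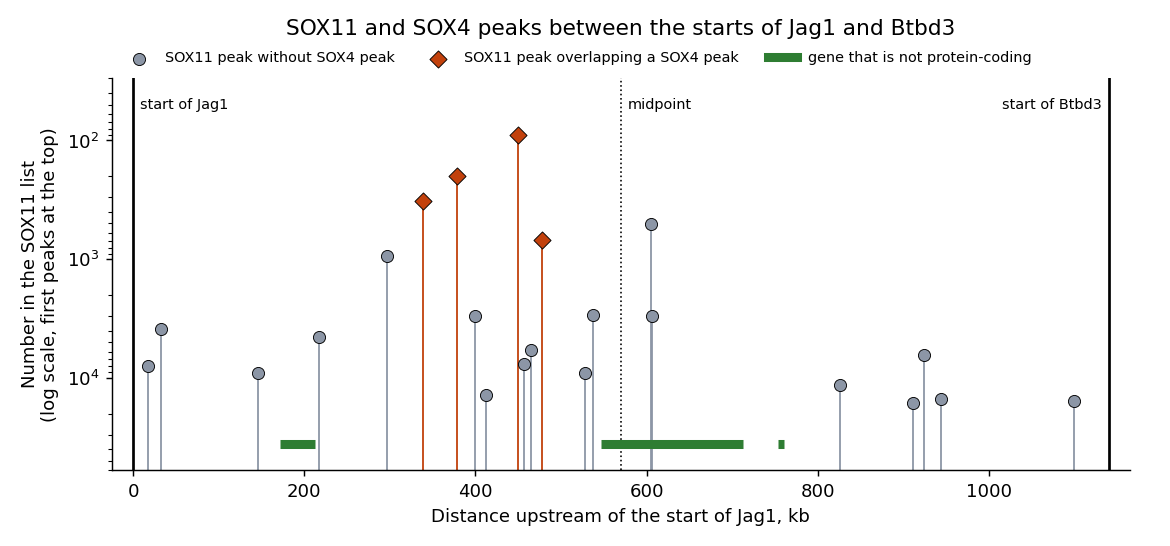
SOX11 peaks between the starts of *Jag1* and *Btbd3*, by distance upstream of *Jag1* in kb (horizontal) and number in the SOX11 list (vertical, log scale, first peaks at the top), with overlaps with SOX4 peaks as diamonds and genes that are not protein-coding as green bars. The 4 shared peaks lie between 339 and 478 kb, and their numbers, 90 to 688, are the lowest on the *Jag1* side of the midpoint.

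*Jag2*, the other Jagged ligand, had no peak of either list by the rule. Its stretch of 24.3 kb was the shortest of the 10. The site closest to its start was a shared one 20.8 kb upstream, SOX11 number 646 (chr12:114188377-114188634) and SOX4 number 1008, whose nearest start was that of *Nudt14*. Closer to the gene itself, a SOX11 peak lay 10.7 kb beyond the 3′ end, number 16824, with the nearest start that of *Gm17723*. The absence of *Jag2* thus rests on the distance allowed, since a window that reached 20.8 kb would give it a peak of both factors.

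*Dll1* encodes the ligand Delta-like 1 and had 6 SOX11 peaks and no SOX4 peak. The closest SOX4 peak was 134 kb away, in an intron of *Tbp*. The earliest SOX11 peak of the gene, number 1972 (chr17:15502669-15502926), lies 1.52 kb beyond the 3′ end of the gene and holds a SOX core and an AP-1 core. Number 4372 lies 8.99 kb beyond the 3′ end, the second farthest inside the 10 kb limit after the *Notch1* peak at 9.26 kb. Number 7665, chr17:15512934-15513191, is in the gene at 773 bp from its 5′ end and 123 bp upstream of the start of a shorter transcript. It holds 3 GC boxes and 1 SOX core. Numbers 4127, 7295 and 18407 lie farther beyond the 3′ end, at 42.3, 55.0 and 23.1 kb from the closest *Dll1* start. All but 1 of the *Dll1* peaks therefore lay past the end of the gene and none upstream of its 5′ end.

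*Rbpj* encodes the DNA-binding protein through which all Notch receptors act. It had 4 SOX11 peaks and no SOX4 peak, and the SOX4 peak closest to one of its starts was 722 kb away. Number 1113, in an intron, lies 654 bp downstream of the start of a shorter transcript and 35.4 kb downstream of the 5′ end of the gene. It is shown because it holds the most SOX cores of the SOX11-only peaks of these genes, 3 on the plus strand at bases 40 to 45, 136 to 141 and 214 to 219:
*Rbpj*, intron, chr5:53982338-53982595, SOX11 number 1113: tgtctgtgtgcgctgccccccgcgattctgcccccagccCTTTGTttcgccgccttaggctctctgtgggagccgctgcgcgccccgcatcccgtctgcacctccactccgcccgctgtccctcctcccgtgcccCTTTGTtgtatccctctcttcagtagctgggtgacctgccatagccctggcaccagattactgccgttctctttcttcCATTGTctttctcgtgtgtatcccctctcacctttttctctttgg
Number 13316 is intronic too, 23.2 kb from the closest start, and numbers 6460 and 12153 lie 64.9 and 98.3 kb upstream. Both upstream peaks hold a SOX core and an AP-1 core. The *Rbpj* peaks thus spread over a long gene and its upstream side, with the earliest in the list at an internal start.

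The targets *Hes1* and *Hey1* encode repressors of the basic helix-loop-helix class. Neither had a peak of either factor within 10 kb. *Hes1* had 3 SOX11 peaks, number 4311 at 30.2 kb upstream, number 5682 at 39.3 kb upstream and number 12609 at 67.0 kb downstream of its closest start. The first and last of these hold an AP-1 core, and only number 12609 holds a SOX core. The closest SOX4 peak was 153 kb upstream of *Hes1*, number 174 of its list, with the nearest start that of *Gm1968*. *Hey1* had SOX11 numbers 20796 and 20893, at 78.1 and 99.8 kb upstream. Those are the latest 2 of the 39 and the only ones among the last 2127 of the list. Both hold the 6-letter SOX core, within 15 bp of the centre.

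By distance, the peaks of these genes lay farther from starts than SOX11 peaks in general. The median distance to the closest start of the gene was 55.0 kb, against 11.5 kb for all SOX11 peaks to the nearest start, and it was 21.8 kb without *Jag1*. Of the 39, 13 lay over 100 kb away, or 33.3% (interval 20.6 to 49.0%) against 11.7%, and all 13 belong to *Jag1*. There were 26 peaks upstream of the closest start and 13 downstream. By the place of the centre, 30 of the 39 lay between genes (76.9%, interval 61.7 to 87.4%, against 40.0% of all SOX11 peaks), 7 in introns (17.9% against 33.4%) and 2 in promoters, taken as the 1 kb before a start and the first 100 bp after it (5.13%, interval 1.42 to 16.9%, against 23.3%). The promoter peaks were those of *Notch2* and *Dll1*. Without *Jag1*, 15 of 24 peaks lay between genes (62.5%, interval 42.7 to 78.8%), 7 in introns (29.2%, interval 14.9 to 49.2%) and 2 in promoters (8.33%, interval 2.32 to 25.8%). The peaks over 100 kb away were thus a matter of *Jag1* alone. Without *Jag1* the share between genes was still higher and that in promoters lower than over all SOX11 peaks. The interval of that promoter share held 23.3%. Distance and place depend on the rule of assignment, since 26 of the 39 peaks entered by their nearest start only. By that rule a gene with a long stretch, such as *Jag1* with 698 kb or *Rbpj* with 232 kb, collects distant peaks between genes. Whether the shares differ beyond the spacing of the genes was not tested.

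**Figure D4:**
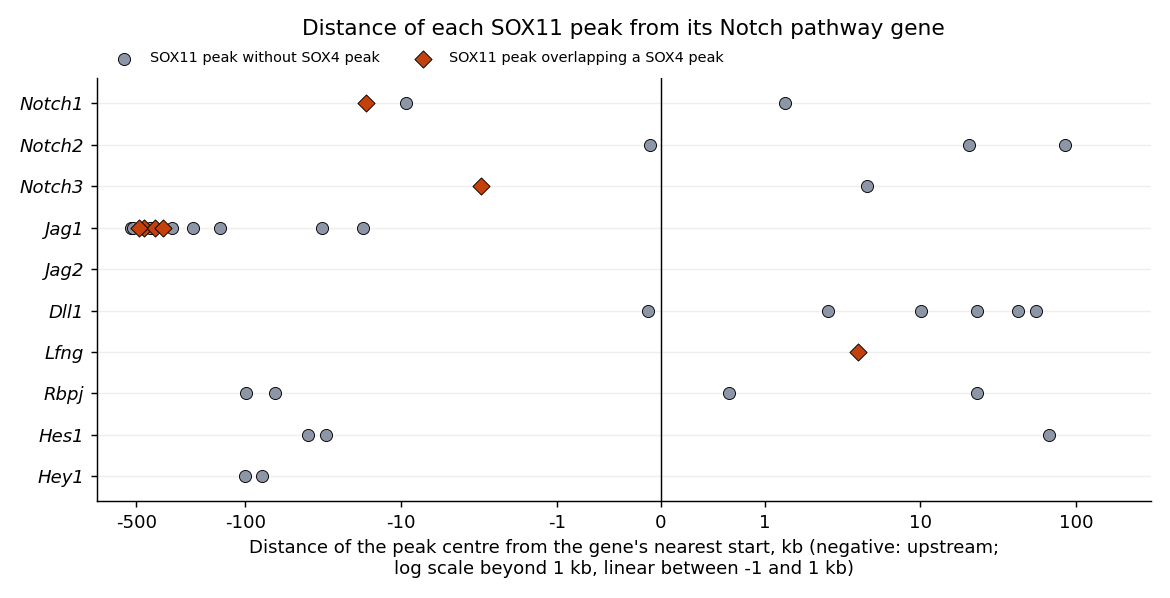
Signed distance in kb of each SOX11 peak centre from the closest start of its gene, log scale beyond 1 kb, for the 10 Notch pathway genes, with peaks that overlap a SOX4 peak as diamonds. The *Jag1* peaks reach 538 kb upstream, those of *Dll1* lie downstream but for 1, and *Hes1* and *Hey1* have none within 30.2 kb.

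By list number, 31 of the 39 peaks stood in the first 10635 of the list, with a median number of 5782, where 10635.5 is the middle. The median was 3874 for *Jag1* and 6877.5 for the other genes. Among the 10 peaks with numbers up to 2127, 6 were shared, and among the later 29 only the *Notch3* peak was. Over the whole list 62.0% of the former and 6.29% of the later peaks were shared. The early SOX11-only peaks were those of *Notch1* (number 704), *Jag1* (number 940), *Rbpj* (number 1113) and *Dll1* (number 1972). The shared peaks had a median number of 322 and the others one of 7438.5.

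**Figure D5:**
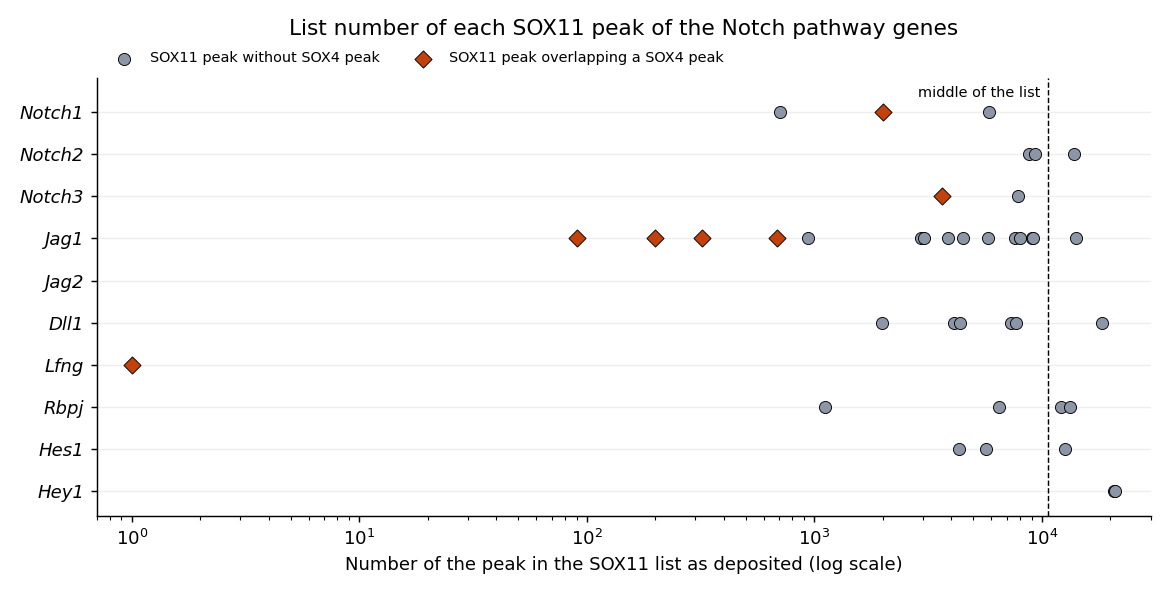
Number of each SOX11 peak in its deposited list (log scale), by gene, with peaks that overlap a SOX4 peak as diamonds and the middle of the list as a dashed line. *Lfng* is at number 1, the 4 shared *Jag1* peaks between 90 and 688, and the *Hey1* peaks at 20796 and 20893.

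In sequence, the 6-letter SOX core was found in 30 of the 39 peaks, against 58.5% of all SOX11 peaks, and 19 had it within 15 bp of the centre, against 26.0%. That distance was chosen after the positions were seen, and the 19 include all 7 shared peaks, so the contrast was partly set by the choice. The 6-letter core occurred at least 2 times in 8 of the 39, against 16.6%. The 7-letter SOX core was found in 14, or 35.9% (interval 22.7 to 51.6%), against 26.6%. The AP-1 core was found in 13 (33.3%, interval 20.6 to 49.0%, against 28.5%), and both it and the 7-letter SOX core in 4 (10.3%, interval 4.06 to 23.6%, against 7.51%). The 13 peaks with an AP-1 core were all outside promoters, where they made up 35.1% of 37 peaks, against 35.3% of all SOX11 peaks outside promoters. Within 50 bp of the centre 4 of the 39 had an AP-1 core, against 14.9% of all SOX11 peaks, so the direction turned. Counted over the whole peak, it was in 2 of 3 *Hes1*, 3 of 6 *Dll1* and 3 of 15 *Jag1* peaks. The rest of the 13 were at *Notch1*, *Notch3*, *Rbpj* and *Hey1*. The TEAD core (GGAATG, on either strand) was found in 6 (15.4% against 22.8%) and the GC box in 10 (25.6% against 24.7%). GTGGGAA was found in 4 (10.3%, interval 4.06 to 23.6%, against 5.98%). All 4 of those peaks were of receptor genes, with 2 at *Notch1* and 1 each at *Notch2* and *Notch3*. The intervals of the 7-letter SOX core, AP-1, TEAD, GTGGGAA and GC box shares all held the share over all SOX11 peaks. That of the 6-letter SOX core, at 76.9% (interval 61.7 to 87.4%), lay above it. The interval counts peaks of the same gene as if they were independent, and 12 of the 30 peaks with this core were those of *Jag1*. All 7 shared peaks are among the 30, and over the whole list 83.6% of shared SOX11 peaks held the core. The difference from 58.5% was not tested.

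The other genes of the pathway were taken from a list of 49 that covers a further receptor and ligands, sugar transferases, proteases, nuclear cofactors, ubiquitin ligases and target genes. Of these, 35 had a SOX11 peak (71.4% against 57.0% of all genes) and 11 a SOX4 peak (22.4% against 13.0%). Within 10 kb the counts were 32 (65.3% against 50.7%) and 9 (18.4% against 10.2%). Nuclear cofactors had a SOX11 peak in 9 of 10 genes and a SOX4 peak in 4, among them *Spen*, *Maml2* and *Maml3*. *Maml3*, a coactivator of the Mastermind family, had 14 SOX11 peaks with a median number of 14180. The gene is 417 kb long, and its nearest stretch held 2.94 SOX11 peaks per 100 kb. The earliest SOX11 peak of the 49 genes belonged to *Spen*, a corepressor partner of RBPJ, with SOX11 number 158 and SOX4 number 377 at 8.19 and 8.11 kb upstream. *Neurl1a*, a ubiquitin ligase gene, followed with number 586 in an intron, shared with SOX4 number 634, and *Ctbp1*, a corepressor gene, with number 633, which was not shared. *Notch4* had a shared peak at the start of one of its transcripts, SOX11 number 945 and SOX4 number 1484. SOX4 peaks were also assigned to *Dner*, *Adam17*, *Numb*, *Mib2* and *Hes2*, and of these only the one at *Mib2* overlapped no SOX11 peak. The SOX4 peak in the *Dner* intron, number 1083, lies 289 kb from the closest *Dner* start, and its nearest start was that of *Pid1*. At the start of *Adam17*, which encodes a membrane protease that can cut Notch receptors, SOX11 number 5354 and SOX4 number 1542 overlapped. The SOX4 peak of *Numb*, an inhibitor of the receptor, centred 148 bp upstream of its start. Of 8 other target genes 4 had a SOX11 peak, and of the 3 genes for sugar transferases only *Pofut1* had one. That peak, number 1800, was centred 76 bp upstream of the *Pofut1* start, but its nearest start was that of *Plagl2*. *Lfng* was thus the only fringe gene with a peak, with neither list holding one for *Mfng* or *Rfng*.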

How the data were processed

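Bound regions of FLAG-tagged SOX11 and SOX4 were measured by ChIP-seq with 2 replicates each and 1 control library. The authors aligned single-end reads to mm9 with Bowtie2, removed low-quality and duplicate reads (Picard), ran HOMER findPeaks in factor style and subtracted blacklisted regions. Tool versions are not given in the sources used here. The deposited files hold 1 list per factor, with both replicates merged and coordinates as the only values, so no count, signal or score was available, and depth, replicate spread and tests were not possible. Coordinates are printed from 1.

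Starts of all transcripts of protein-coding genes (GENCODE M1, mm9) were used, with peaks counted by their centres, a window of 10 kb, promoters of 1 kb before and 100 bp after a start, and an overlap of at least 1 bp counted as shared. Sequences were read from the mm9 genome and motifs were counted on both strands. The 10 genes were all described, and of the 49 others those with a SOX4 peak and the 3 with the earliest SOX11 peaks were named, apart from 1 gene that is not reported here. *Pofut1*, *Mfng* and *Rfng* were added after their values were seen, as genes of the same role as *Lfng*, and so were the neighbours of a peak. The genes and lists were chosen with earlier results of these data known. Wilson intervals at 95% cover counting error only. Scripts used Python 3.11.15, pandas 2.3.3 and scipy 1.17.1, and overlaps and motif searches were tested against bedtools 2.31.1 and on planted sequences.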

Additional observations from a re-analysis of the deposited data

How the results depend on the processing

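Of 51 alternative values for 12 counts, 41 stayed within 1.5 times the reported count, and 8 of the 51 were added after seeing the data. With only the gene body and 10 kb around it counted, the 10 genes had 13 SOX11 peaks in place of 39 and 2 SOX4 peaks in place of 7, and 2 genes in place of 4 had a SOX4 peak (this last added after seeing the data). With a window of 25 kb *Jag2* joined, and all 10 genes had a SOX11 peak. With the starts of protein-coding transcripts alone (added after seeing the data), *Notch3* gained peak number 4629 and the 10 genes had 40 SOX11 peaks. With the first 10635 SOX11 and 1334 SOX4 peaks alone, the other pathway genes with a SOX4 peak numbered 4 in place of 11. The 6-letter SOX core was in 30 peaks in place of 14 with the 7-letter one, and the share over all SOX11 peaks moved from 26.6 to 58.5%. Within 50 bp of the centre the AP-1 core was in 4 peaks, the GC box in 6 and GTGGGAA in 2, in place of 13, 10 and 4, with 14.9, 14.2 and 2.32% over all SOX11 peaks. The AP-1 share of the 39 peaks was then below that of all SOX11 peaks and not above it. The 10-letter AP-1 motif with 1 mismatch was in 21 peaks and 41.1% of all SOX11 peaks, and the 6-letter RBPJ core in 12 and 23.3%. No paired analysis was possible because both replicates of a factor were merged in 1 list, and for the same reason no replicate could be left out. The depth behind the SOX4 list is unknown, so a gene without a SOX4 peak is one without a call.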
